A study of Mus musculus with 4 samples.

Results

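Stem cell and lineage transcription factors were followed in mouse haematopoietic stem cells (HSC) that had lost the retinoblastoma (Rb) family. The set held 42 named factors, and 39 of them had a probe set that the platform annotation assigned to a single gene symbol, out of 18193 genes measured on the arrays. Each gene was read from its brightest probe set by mean of all 4 arrays, and the members have 97 probe sets in total. Of the 39, 20 were stem cell factors, 5 were myeloid factors of 6 listed, 3 were erythroid-megakaryocyte factors and 11 were lymphoid factors of 13 listed. Cebpe, Runx2 and Tcf7 had no such probe set and were not analysed here. The class of a factor is the lineage it is best known for, and several act in more than a single lineage.

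The arrays came from 2 Rb family deficient pools, with the genotype label Rb -/- p130 -/- p107-/-, and 2 pools labelled wild type, with the genotype Rb +/+ p130 +/+ p107-/-. Both groups therefore lacked p107 by label, and they differed in Rb and p130. Adult mice had been injected with tamoxifen to start recombination, by labels that are the same for both groups, and cells in the KLS CD48- CD150+ gate, which enriches for long-term HSC, were sorted 2 weeks later. Each pool combined 3 mice, by the series' design text. The labels name neither the Cre driver nor the strain. The description labels read TKO1 and TKO2-5 for the deficient pools and WT1 and WT2-3 for the wild type pools, and what these numbers count is not stated. Whether pools shared mice is not stated either. The p-values set each group difference against the spread between the 2 pools within a group, which limma moderates over all genes. They therefore speak for these 4 pools.

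In adult marrow a group of transcription factors keeps HSC self-renewing. GATA2, TAL1, LYL1, LMO2, RUNX1, ERG and FLI1 bind many of the same enhancers, and LMO2 and LDB1 bridge DNA-bound partners. Lineage choice is set by factors that oppose each other, of which PU.1 (the product of Spi1) and GATA1 are the textbook pair. C/EBP proteins drive granulocyte production, and Ikaros, E-proteins, EBF1 and PAX5 guide lymphoid cells. Rb, p107 and p130 hold E2F transcription factors in check. They are thereby tied to the exit from the cell cycle that accompanies differentiation.

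All values are RMA log2 expression values, and every difference is Rb family deficient minus wild type on that scale. Differences are given with limma's moderated standard error (SE), 2 pools per group, and adjusted p-values are limma's over all 18193 genes. No factor passed an adjusted p of 0.05. Over all genes limma called 0 higher and 0 lower, a share of 0% in each direction, while 399 genes (2.19%) were higher and 735 (4.04%) were lower at an unadjusted p under 0.05. When each array was centred on its median over genes, that split was 601 higher and 530 lower. Among the factors, an unadjusted p under 0.05 was found for Pbx3 and Cebpd above 0 and for Mecom below it. These are 2 and 1 of 39 (5.13% and 2.56%). Adjusted p-values of the 39 ran from 0.761 to 0.996.

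A difference of at least 0.4 in size was seen for 9 of the 39 factors, or 23.1%, against 12.7% of all genes. Because 36 of the 39 factors lay above the median level of all genes, genes above that level are the nearer background, and 17.7% of these differed by as much. Both deficient pools lay above both wild type pools for 9 factors and below them for 5. The shares over all genes were 17% and 18.5%, and over genes above the median level 10.7% and 26.5%. The median size of the group difference over the factors was 0.20, against a median gap of 0.25 between the 2 deficient pools and of 0.31 between the 2 wild type pools. Over all genes the same medians were 0.15, 0.18 and 0.20. A difference of means of 2 pools is expected to be smaller than a gap between single pools, so these sizes are given as a description.

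**Figure D1:**
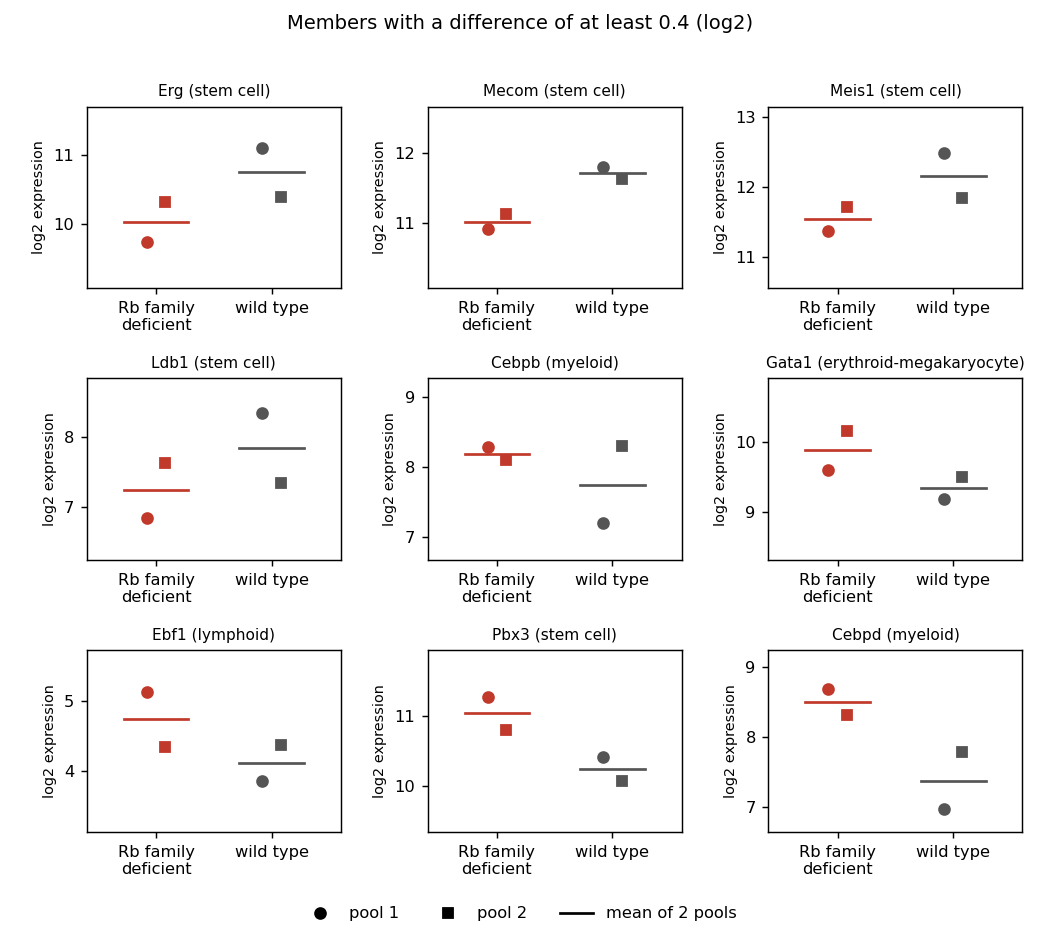
Log2 expression (vertical axis, each panel spanning the same height of log2 units) in the Rb family deficient and wild type pools for the 9 factors that differed by at least 0.4. Points are pools and lines are means of 2 pools: the groups do not overlap for Erg, Mecom, Meis1, Gata1, Pbx3 and Cebpd, and they overlap for Ldb1, Cebpb and Ebf1.

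Stem cell factors lay mostly below 0, as did well-expressed genes in general. Of the 20, 14 were below 0 and 6 above it, with a median difference of -0.09, and 9 of 20 were above 0 after median centring. Over the genes above the median level 36.4% were above 0 and the median was also -0.09, while over all genes 49.2% were above 0 with a median of -0.00376. Both deficient pools lay below both wild type pools for 4 of the 20 (Meis1, Mecom, Lmo2 and Erg) and above them for another 4 (Pbx3, Runx1, Tal1 and Myb). Each is 20% of the class. The shares below and above were 18.5% and 17% over all genes, and 26.5% and 10.7% over genes above the median level.

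Mecom encodes the zinc finger protein EVI1 and its longer MDS1-EVI1 form, and it is needed to maintain long-term HSC. Its values were 10.90 and 11.13 in deficient HSC against 11.80 and 11.62 in wild type HSC. The groups did not overlap, and the gap between them exceeded the gap between pools in either group. Mecom was 1.62-fold lower (log2 difference -0.69, SE 0.16, 95% interval -1.11 to -0.28, limma adjusted p = 0.761), the stem cell factor with the lowest p. Leaving out a pool gave between -0.81 and -0.58. Its other probe sets were far dimmer and differed by -0.04 (SE 0.15) and -0.23 (SE 0.25), so the difference rests on a single probe set.

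Pbx3, a TALE homeodomain protein that binds DNA together with HOX and MEIS proteins, went the other way. It stood at 11.27 and 10.80 in deficient HSC against 10.41 and 10.06 in wild type HSC, with no overlap. It was 1.74-fold higher (log2 difference 0.80, SE 0.23, 95% interval 0.23 to 1.38, limma adjusted p = 0.761). The second Pbx3 probe set had 8.35 and 7.97 in deficient HSC and 7.65 and 7.35 in wild type HSC, a difference of 0.66 (SE 0.20). Both Pbx3 probe sets therefore separated the groups in the same direction, and without a pool the first gave between 0.57 and 1.04.

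Meis1, the TALE partner of HOX proteins that limits oxidative stress in HSC, gave opposite answers by probe set. Its brightest probe set had 11.36 and 11.71 in deficient HSC and 12.48 and 11.84 in wild type HSC, which is -0.62 on the log2 scale (SE 0.26, limma adjusted p = 0.799), or -0.30 without wild type pool 1 and -0.95 without wild type pool 2. The second had 10.68 and 10.51 in deficient HSC and 10.10 and 10.11 in wild type HSC, a difference of 0.49 (SE 0.15). The third, dimmer probe set differed by 0.43 (SE 0.20). In each of the 3 the groups did not overlap, so no single direction can be given for Meis1, and the mean of its probe sets differed by 0.10. Where these probe sets lie in the transcript is not given in the sources used here.

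Erg, an ETS family factor required for HSC maintenance, had 9.75 and 10.32 in deficient HSC against 11.09 and 10.40 in wild type HSC. Deficient pool 2 lay just under wild type pool 2, and the wide gap was to wild type pool 1. Erg was 1.64-fold lower (log2 difference -0.71, SE 0.31, limma adjusted p = 0.800), or -0.37 without wild type pool 1. Its dimmer probe set, at 6.05 and 5.87 in deficient HSC and 6.51 and 6.44 in wild type HSC, also differed downwards (-0.51, SE 0.15). Fli1, an ETS factor that also acts in megakaryocytes, differed by -0.11 (SE 0.19), and its second probe set by 0.26 (SE 0.19). For the ETS repressor Etv6, needed for HSC in bone marrow, the difference was -0.01 (SE 0.16). Its second, dimmer probe set had 6.83 and 7.10 in deficient HSC and 7.54 and 7.31 in wild type HSC, without overlap (-0.46, SE 0.18).

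Of the complex that LMO2 and LDB1 bridge, Lmo2 stood at 12.54 and 12.94 in deficient HSC against 13.16 and 13.01 in wild type HSC (-0.35, SE 0.19). Ldb1, the dimerising co-factor, had 6.85 and 7.62 against 8.34 and 7.35, a difference of -0.61 (SE 0.41) with overlapping groups, which was -0.11 without wild type pool 1 and -1.11 without wild type pool 2. Gata2, the GATA factor of stem and early progenitor cells, differed by -0.03 (SE 0.27), with 11.08 and 11.84 in deficient HSC on either side of 11.54 and 11.43 in wild type HSC. The basic helix-loop-helix paralogs lay on either side of 0, Tal1 at 0.18 (SE 0.16) and Lyl1 at -0.19 (SE 0.18). Runx1, required for HSC to emerge in the embryo, differed by 0.31 (SE 0.18), and 6 of its 6 probe sets were above 0, between 0.09 and 0.37. For Cbfa2t3, an ETO family co-repressor of the same complex, the difference was -0.02 (SE 0.19).

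The HSC-enriched bZIP factor Hlf differed by -0.19 (SE 0.18). Its second probe set had 9.82 and 10.04 in deficient HSC and 10.59 and 10.26 in wild type HSC, a difference of -0.50 (SE 0.19). Prdm16, a PR domain factor needed to preserve HSC, differed by -0.08 (SE 0.15), with its 4 probe sets between -0.08 and 0.04. The homeodomain factor Hhex stood at -0.14 (SE 0.16) and the nuclear factor I gene Nfix at 0.20 (SE 0.26). Myb, which sustains progenitor proliferation, differed by 0.17 (SE 0.15), and its other probe sets by -0.18 and -0.08. Gfi1, a repressor that restrains HSC proliferation and is needed for neutrophils, had 7.93 and 9.02 in deficient HSC and 8.39 and 9.31 in wild type HSC, so its pools spread more widely within groups than between them (-0.38, SE 0.46). Its paralog Gfi1b, which acts in HSC and in erythroid and megakaryocyte cells, differed by 0.07 (SE 0.20).

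**Figure D2:**
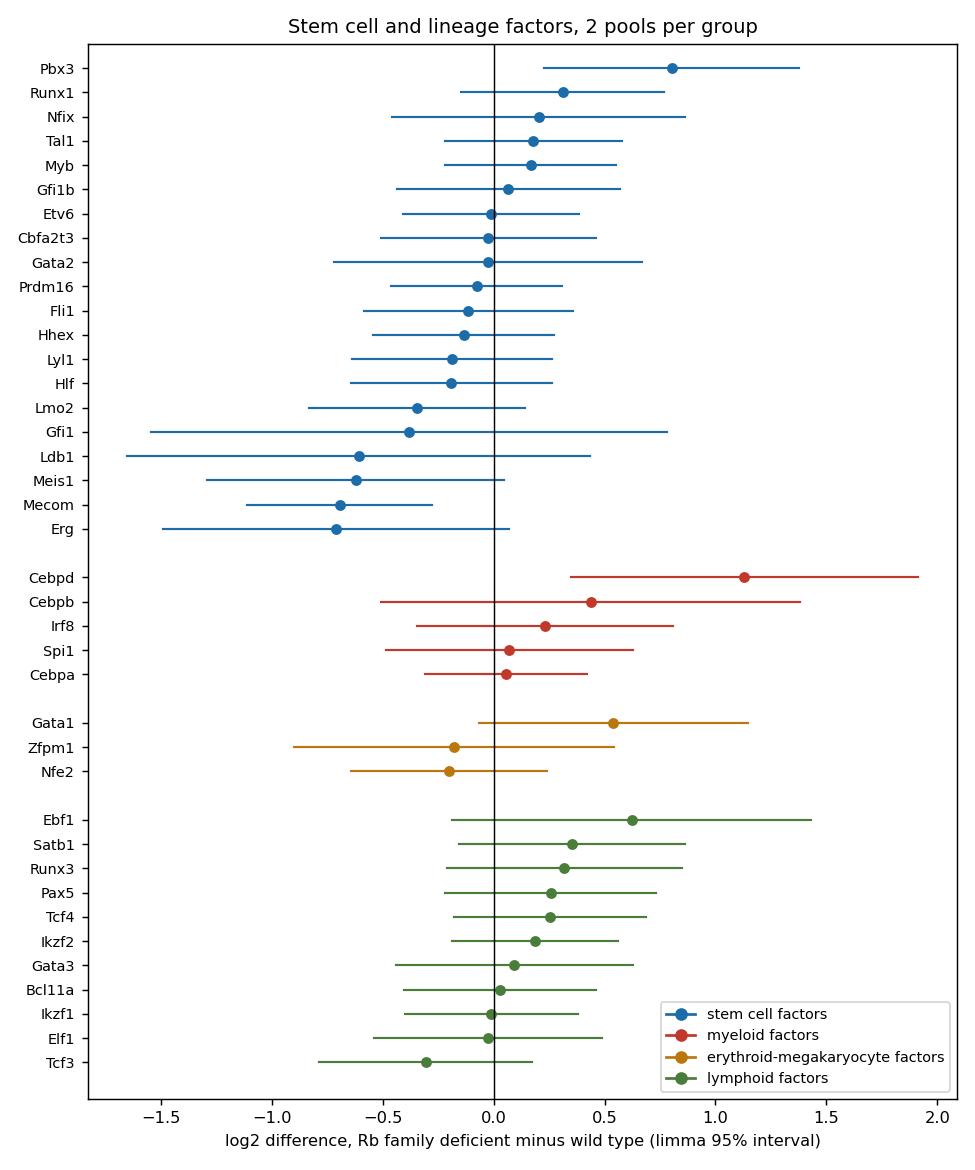
Log2 difference, Rb family deficient minus wild type (horizontal axis), of the 39 factors by class, with limma's 95% intervals from 2 pools per group. The intervals of Pbx3 and Cebpd lie above 0 and that of Mecom below it before adjustment, and the other 36 cross 0.

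Promoter sequences show which factors carry E2F letters near their start. RefSeq windows of 250 bases before to 50 after a start site (build GRCm38.p6) matched 31 of the 39 factors by symbol, with 53 windows. The other 8, Pbx3, Cebpd, Spi1, Lmo2, Fli1, Nfe2, Ikzf2 and Tcf4, had no window and were not searched. The E2F letters TTTCCCGC, TTTGGCGC, TTTCGCGC and TTTGCCGC, searched on both strands, were found in 2 of the 53 windows (3.77%), against 2.26% of all 32851 windows. The windows were those of Gfi1b and Lyl1, shown here because of those letters, and neither gene differed by more than 0.19 in size. The GATA letters AGATAA and TGATAA were found in 6 of the 53 windows (11.3%), belonging to Cbfa2t3, Erg, Gfi1b, Ldb1, Mecom and Tal1, against 18.6% of all windows. The ETS letters CCGGAAGT were found in 2 windows (3.77%), of Meis1 and Tcf3, against 3.89% of all. E-box letters CAGCTG and CAGATG were found in 9 windows (17%) against 30.6% of all. In the windows printed no match overlaps another, and the upstream Mecom window also holds an E-box match, left in lower case. A match is a description of letters and says nothing of binding. In the sequences E2F and GATA letters are in capitals. The Mecom windows are shown because Mecom had the lowest p of the class, and they stand at an upstream and a downstream start.
Gfi1b, chr2:28621933-28622232, minus strand, with 2 E2F matches at bases 153 to 160 and 243 to 250 and a GATA match at bases 131 to 136: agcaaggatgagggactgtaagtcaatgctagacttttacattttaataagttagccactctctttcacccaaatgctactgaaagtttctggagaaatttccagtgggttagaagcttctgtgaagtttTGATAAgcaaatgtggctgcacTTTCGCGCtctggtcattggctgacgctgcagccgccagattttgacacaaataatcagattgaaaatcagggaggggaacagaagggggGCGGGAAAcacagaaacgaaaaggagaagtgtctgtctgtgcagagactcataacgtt
Lyl1, chr8:84701207-84701506, plus strand, with an E2F match at bases 293 to 300: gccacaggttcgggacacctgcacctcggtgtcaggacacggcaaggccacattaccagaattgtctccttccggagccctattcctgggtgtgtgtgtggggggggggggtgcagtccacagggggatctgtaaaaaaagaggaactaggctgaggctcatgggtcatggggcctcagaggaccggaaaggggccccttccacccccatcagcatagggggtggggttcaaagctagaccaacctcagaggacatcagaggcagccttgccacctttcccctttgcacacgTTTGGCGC
Mecom, chr3:30509710-30510009, minus strand, with a GATA match at bases 220 to 225: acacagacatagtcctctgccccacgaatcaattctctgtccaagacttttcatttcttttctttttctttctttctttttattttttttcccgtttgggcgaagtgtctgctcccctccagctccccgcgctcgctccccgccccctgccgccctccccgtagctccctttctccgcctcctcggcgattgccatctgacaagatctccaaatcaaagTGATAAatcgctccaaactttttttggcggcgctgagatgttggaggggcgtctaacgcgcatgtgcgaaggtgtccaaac
Mecom, chr3:30013155-30013454, minus strand, with no E2F or GATA match: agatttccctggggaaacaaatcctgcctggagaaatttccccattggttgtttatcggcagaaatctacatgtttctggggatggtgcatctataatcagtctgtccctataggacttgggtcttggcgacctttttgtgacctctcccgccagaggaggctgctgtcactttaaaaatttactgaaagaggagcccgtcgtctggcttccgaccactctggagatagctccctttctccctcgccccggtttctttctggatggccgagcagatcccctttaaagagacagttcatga

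Myeloid factors all stood above 0, 5 of 5, with a median difference of 0.23, against 49.2% of all genes and 36.4% of genes above the median level. Without wild type pool 1 the median was 0.00502 with 3 of 5 above 0, and with a gene's probe sets averaged it was 0.071 with 4 of 5. Cebpd had the widest difference of the 5. It encodes C/EBP delta, which is induced by inflammatory cytokines and during granulocyte maturation. Its values were 8.69 and 8.32 in deficient HSC and 6.97 and 7.79 in wild type HSC, with no overlap. As the only factor past 2-fold, 1 of 39 against 0.528% of all genes higher and 0.275% lower by as much, Cebpd was 2.19-fold higher (log2 difference 1.13, SE 0.31, 95% interval 0.35 to 1.91, limma adjusted p = 0.761), and it was 0.72 higher without wild type pool 1. The second, dimmer Cebpd probe set differed by 0.27 (SE 0.22), with overlapping groups.

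Cebpb, the C/EBP member of emergency granulocyte production, had 8.28 and 8.09 in deficient HSC and 7.19 and 8.30 in wild type HSC. Wild type pool 2 was the highest of the 4 and wild type pool 1 the lowest, so the difference of 0.44 (SE 0.37) turned to -0.12 without wild type pool 1. Cebpa, which commits progenitors to the granulocyte and monocyte fate, stood at 6.79 and 6.73 in deficient HSC against 6.66 and 6.76 in wild type HSC, a difference of 0.06 (SE 0.14). Spi1, the gene of PU.1, differed by 0.07 (SE 0.22). Irf8, which directs monocyte and dendritic cell fate, differed by 0.23 (SE 0.23), while its dimmer probe set was at -0.32 (SE 0.18). The commitment factors Cebpa and Spi1 thus showed no difference beyond the spread, with 95% intervals of -0.31 to 0.42 and -0.49 to 0.63.

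Genes of the granulocyte and monocyte programme had the same low pool as the myeloid factors. Of 15 measured members, 12 were above 0, against 49.2% of all genes, with a median difference of 0.61. Of the 15, 0 passed limma's threshold. An unadjusted p under 0.05 was reached by 3 above 0 (20%) and 0 below, against 2.19% and 4.04% of all genes. The NADPH oxidase genes Cybb (1.43, SE 0.39) and Ncf1 (0.77, SE 0.28), haptoglobin (Hp, 1.71, SE 0.54) and the Fc receptor gene Fcgr3 (1.19, SE 0.63) had the lowest p. The mean level over the 15 genes was 8.94 and 9.46 in deficient HSC against 7.86 and 9.31 in wild type HSC. In this mean wild type pool 1 stood apart from the other 3 pools. Without wild type pool 1 the median was -0.04. Single genes did not all follow the mean. Mpo had 10.72 and 12.83 in deficient HSC and 10.71 and 12.60 in wild type HSC, and Elane 6.84 and 9.60 against 5.56 and 9.50. Pool 2 lay above pool 1 for 8 of the 15 genes in deficient HSC and for 13 in wild type HSC.

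Markers of mature neutrophils, which the sort gate should leave out, were above 0 for 11 of 11 measured genes, against 49.2% of all genes. Their median was 0.98. Their mean level was 11.31 and 10.49 in deficient HSC and 9.49 and 10.23 in wild type HSC. Those with the lowest p were the neutrophil surface gene Cd177 (0.77, SE 0.18), the collagenase gene Mmp8 (2.24, SE 0.60), Chil3 (1.09, SE 0.36) and the gelatinase gene Mmp9 (1.56, SE 0.52), each without overlap and with an adjusted p of 0.761. Mmp8 had 9.36 and 7.49 in deficient HSC and 5.996 and 6.37 in wild type HSC. S100a8, an abundant neutrophil gene, stood at 14.28 and 13.61 against 12.36 and 13.56, so deficient pool 2 lay close to wild type pool 2. Both deficient pools lay above both wild type pools for 8 of the 11 markers (72.7%), against 17% of all genes. The groups overlapped for the other 3, S100a9, Ltf and Camp, where deficient pool 2 lay below wild type pool 2. In the list means the deficient pools were both higher, and deficient pool 1 was the highest. Cebpd and Cebpb are also expressed in neutrophils, and the part of such cells in their values was not tested. In bulk arrays, more cells of a type cannot be told apart from more RNA per cell.

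The 3 erythroid-megakaryocyte factors lay on both sides of 0. Gata1, the master factor of erythroid and megakaryocyte cells, had 9.60 and 10.15 in deficient HSC and 9.18 and 9.49 in wild type HSC. The groups did not overlap, though deficient pool 1 lay close above wild type pool 2. Gata1 was 1.45-fold higher (log2 difference 0.54, SE 0.24, 95% interval -0.07 to 1.15, limma adjusted p = 0.802), with 0.26 when deficient pool 2 was left out and 0.82 when deficient pool 1 was. Zfpm1, the gene of its co-factor FOG-1, had 8.43 and 9.05 against 9.18 and 8.66, a difference of -0.18 (SE 0.29). Nfe2, the bZIP factor of platelet formation, had 11.41 and 11.56 against 11.53 and 11.84, a difference of -0.20 (SE 0.17). The class median was -0.18 and its mean 0.05, with Gata1 alone above 0. The median turned to 0.13 without deficient pool 1 and to 0.082 without wild type pool 1, with 2 of 3 above 0 each time.

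Genes of the erythroid programme varied more between pools than between groups. Of 16 measured, Gfi1b among them, 9 were above 0 with a median of 0.05, and 0 passed. At an unadjusted p under 0.05 the ammonium channel gene Rhag was higher (1.14, SE 0.42) and the carbonic anhydrase gene Car2 lower (-0.56, SE 0.19). Each is 6.25% of the list, against 2.19% of all genes higher and 4.04% lower. Next by p were the spectrin gene Sptb (0.36, SE 0.25) and the heme binding protein gene Hebp1 (-0.45, SE 0.32). Car1, an early erythroid gene, stood at 11.39 and 9.41 in deficient HSC and 8.08 and 11.70 in wild type HSC. Markers of erythroid cells averaged 7.69 and 6.98 in deficient HSC and 6.26 and 7.81 in wild type HSC. Gata1 did not follow the order of these means. Rhag, at 8.35 and 9.15 against 7.10 and 8.12, was the only measured marker of that list with the pool order of Gata1. The part of erythroid cells in the Gata1 values was not tested.

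In the megakaryocyte programme, 8 of 15 measured genes were above 0, with a median of 0.02 and 0 passing. The median was -0.12 without deficient pool 2 and -0.018 with probe sets of a gene averaged. At an unadjusted p under 0.05 the platelet glycoprotein gene Gp1bb (1.17, SE 0.19) and P-selectin (Selp, 1.15, SE 0.42) were higher. Multimerin (Mmrn1, -0.60, SE 0.16) was lower. These are 13.3% and 6.67% of the list, against 2.19% and 4.04% of all genes. Rab27b, which serves granule transport, came next at 0.44 (SE 0.26). Markers of megakaryocytes averaged 7.89 and 8.30 in deficient HSC and 8.003 and 7.85 in wild type HSC.

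Lymphoid factors lay mostly above 0, 8 of 11 (72.7%), against 49.2% of all genes and 36.4% of genes above the median level. Their median difference was 0.19 and ran from 0.10 to 0.16 when a pool was left out. Without wild type pool 2, Gata3 (-0.17) and Bcl11a (-0.094) turned below 0. Ebf1, which specifies B cells, had the lowest p of the class. Its probe set was dim, at 5.13 and 4.34 in deficient HSC and 3.86 and 4.37 in wild type HSC, and deficient pool 1 alone stood clear of the rest. Ebf1 differed by 0.62 (SE 0.32, limma adjusted p = 0.813), or 0.23 without deficient pool 1. Its 5 probe sets were all above 0, between 0.07 and 0.91. Pax5, which commits cells to the B lineage, was also dim and differed by 0.26 (SE 0.19).

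Satb1, a chromatin organiser linked to lymphoid potential of HSC, had 8.41 and 8.19 in deficient HSC and 7.73 and 8.15 in wild type HSC. It differed by 0.35 (SE 0.20, limma adjusted p = 0.831), and 4 of its 5 probe sets were above 0. Among the E-proteins, Tcf4 (E2-2) was above 0 at 0.25 (SE 0.17) and Tcf3 (E2A) below it at -0.31 (SE 0.19), and in each case the groups did not overlap. All 3 Tcf3 probe sets were below 0, and 4 of 6 Tcf4 probe sets were above it. Runx3, a Runt domain factor of cytotoxic T cells, differed by 0.32 (SE 0.21), close to the 0.31 of its paralog Runx1.

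Of the Ikaros family, Ikzf1 (Ikaros) stood at -0.01 (SE 0.15) and Ikzf2 (Helios) at 0.19 (SE 0.15), the second without overlap of the groups. Gata3, the T cell GATA factor that HSC also express, differed by 0.09 (SE 0.21). For Bcl11a, a zinc finger factor of B cells and of globin silencing, the difference was 0.03 (SE 0.17), and its 7 probe sets ran from -0.51 to 0.43. Elf1, an ETS factor of lymphoid and stem cells, differed by -0.02 (SE 0.20) with its brightest probe set. Its second had 8.96 and 9.32 in deficient HSC and 8.40 and 8.08 in wild type HSC, a difference of 0.90 (SE 0.20). The reading of Elf1 thus depends on the probe set.

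**Figure D3:**
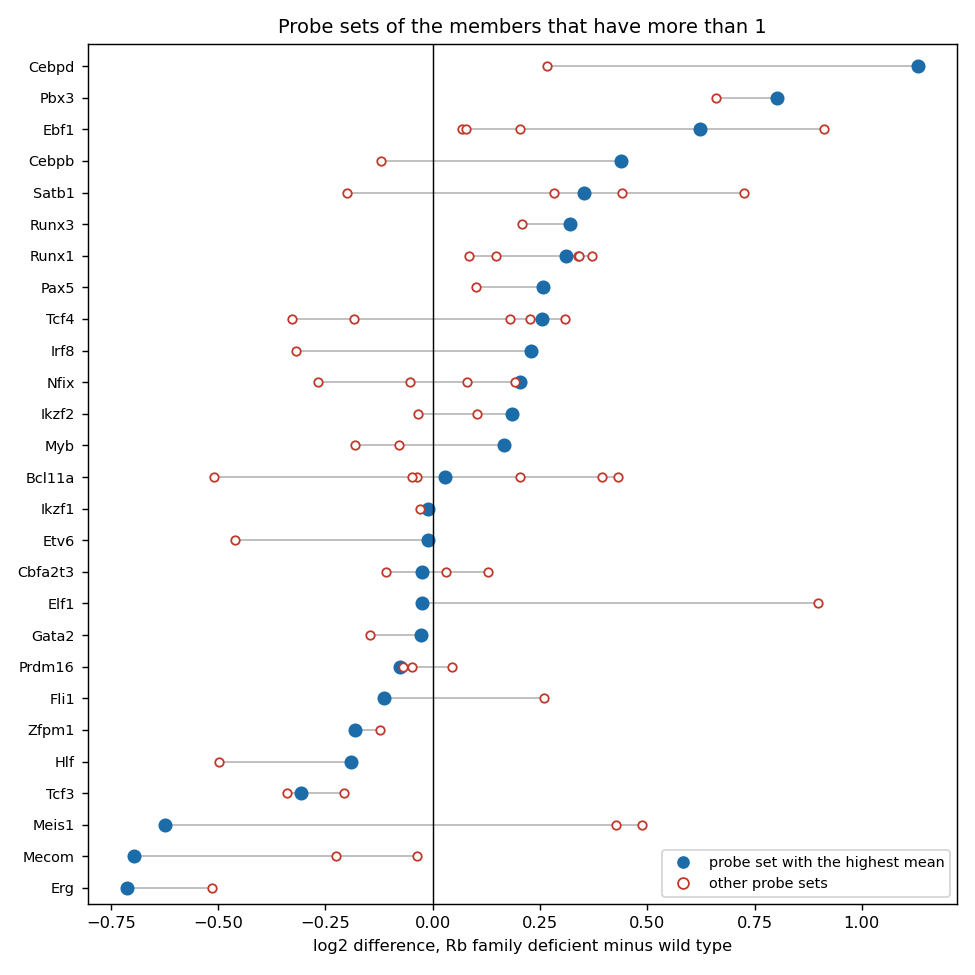
Log2 difference, Rb family deficient minus wild type (horizontal axis), for every probe set of the 27 factors that have more than a single one, with the brightest filled and the others open. All probe sets lie on a single side of 0 for 14 factors, such as Pbx3, Runx1 and Erg, and on both sides for 13. Among these 13 are Meis1 (-0.62 to 0.49), Bcl11a (-0.51 to 0.43), Satb1 (-0.20 to 0.73) and Elf1 (-0.02 to 0.90).

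Genes of the lymphoid programme were above 0 for 13 of 17 measured, against 49.2% of all genes. Their median was 0.17, with 0 passing or reaching an unadjusted p under 0.05. The median was -0.11 without wild type pool 1 and -0.034 without deficient pool 1. Those with the lowest p were the recombinase gene Rag2 (0.39, SE 0.16), the B cell gene Ms4a1 (0.37, SE 0.21), Notch1 (-0.33, SE 0.19) and the chemokine receptor gene Ccr9 (0.24, SE 0.16). Markers of B cells averaged 7.03 and 6.89 in deficient HSC and 6.63 and 6.91 in wild type HSC (4 of 6 above 0), and those of T and NK cells 6.35 and 6.41 against 6.15 and 6.40 (6 of 6 above 0, the highest difference 0.30). Wild type pool 1 was lowest in both marker lists. The part of these cells in the lymphoid factors was not tested.

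Other haematopoietic transcription factors, 45 measured of 49 listed, were balanced. There were 23 above 0 and 22 below, with a median of 0.03 and 0 past limma's threshold. An unadjusted p under 0.05 was reached by 2 above 0 and 2 below (4.44% each), against 2.19% and 4.04% of all genes. Mycn, a Myc family member of HSC, had 10.50 and 10.61 in deficient HSC and 11.13 and 11.55 in wild type HSC, a difference of -0.79 (SE 0.19). Tox, a regulator of T cell development, differed by -0.74 (SE 0.19). On the other side stood Id3, an inhibitor of E-proteins, at 1.04 (SE 0.32), and the zinc finger factor Zeb2 at 0.52 (SE 0.16). The adjusted p of each was 0.761.

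**Figure D4:**
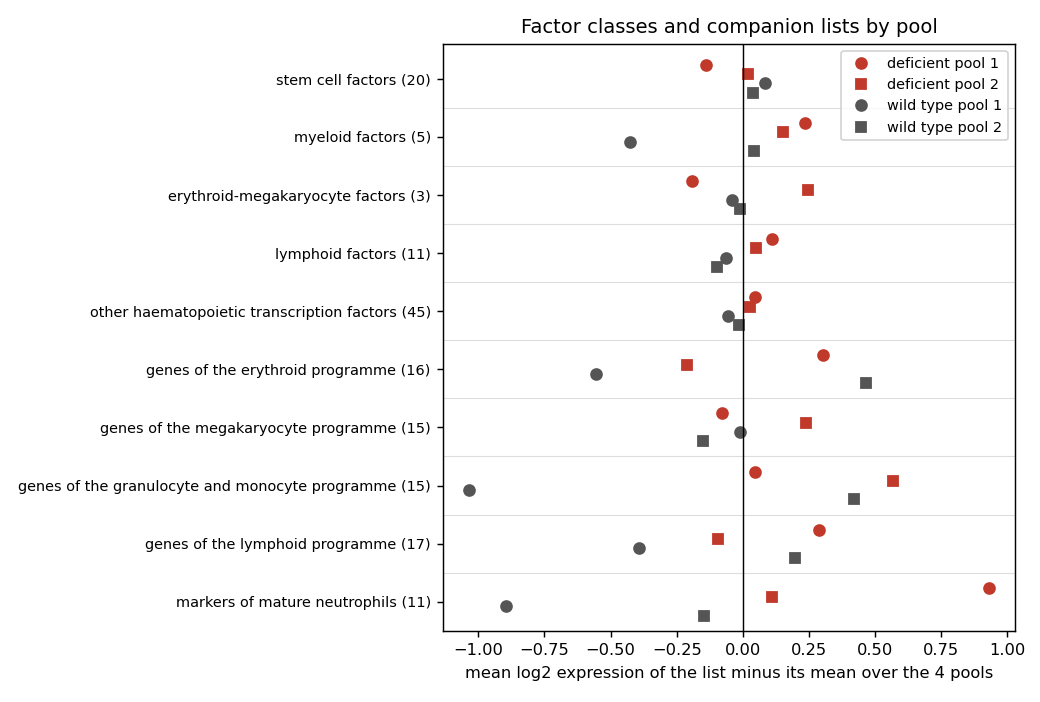
Mean log2 expression of each factor class and companion list minus its mean over the 4 pools (horizontal axis), with the number of genes in brackets, for deficient and wild type pools 1 and 2. Wild type pool 1 stands lowest in the granulocyte, erythroid, lymphoid and neutrophil lists and in the myeloid factors, while the stem cell factors span 10.58 and 10.74 in deficient HSC and 10.81 and 10.76 in wild type HSC.

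Levels of the Rb family genes and the sort markers were read on the same arrays. Rbl2, the gene of p130, had 7.82 and 8.21 in deficient HSC against 8.94 and 8.75 in wild type HSC. Rb1 stood at 9.82 and 9.72 against 9.37 and 9.58, higher in the pools labelled deficient. Rbl1, the gene of p107, had 5.35 and 5.42 against 5.92 and 6.77. It was lower in the deficient pools (-0.96, SE 0.30) although both groups lack p107 by label. The sources used here do not place these probe sets relative to the deleted exons, and the Rb1 and Rbl1 values therefore check no label. Of the gate's own genes, Slamf1, which encodes CD150, had 9.26 and 9.90 in deficient HSC and 8.81 and 9.86 in wild type HSC. Cd48 had 6.29 and 6.57 against 5.84 and 7.09, and in both genes the groups overlap. HSC markers averaged 8.73 and 9.06 in deficient HSC and 8.91 and 9.11 in wild type HSC, with 4 of 9 above 0. That list also holds Cd48, which the gate selects against and which lay below 0 (-0.03). Neither the mean nor the count is therefore a score of HSC identity. The endothelial protein C receptor gene Procr differed by -0.85 (SE 0.17), Cd34 by -0.76 (SE 0.24) and Kit by -0.59 (SE 0.28). The catenin-like gene Ctnnal1 differed by 0.75 (SE 0.24), and all of these genes had an adjusted p above the threshold. Macrophage markers averaged 5.08 and 5.32 against 4.90 and 5.45, and mast cell and basophil markers, a list that holds Gata2, 6.54 and 7.004 against 6.04 and 6.95. RNA quality was read from the Actb control as its 3' signal less its 5' signal, on the log2 scale, at 3.13 and 2.95 in deficient HSC and 2.32 and 2.81 in wild type HSC. For Gapdh it was 2.79 and 2.50 against 2.40 and 2.58, where the groups overlap. The Y-linked genes Eif2s3y and Kdm5d had lower values in deficient HSC. The part of these in the factors' values was not tested.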

How the data were processed

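Affymetrix arrays of biotinylated cRNA were made from 4 pools of sorted HSC, 2 per group, grouped by title. The authors deposited a log2 value for each probe set on each array. Per the submitters' processing notes RMA and limma were used. No source used here gives their settings. Array medians ran from 5.94 to 6.02. RMA compresses folds of dim probe sets and gives arrays nearly the same distribution, so it hides any global shift in RNA content. Detection calls were not used here, and precision is limited by having 4 arrays.

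Of 45101 probe sets, 34945 had a single gene symbol in the platform annotation of 2016, 932 had several, 9160 had none listed and 64 were controls. Symbols were updated by Entrez ID through a RefSeq table (34741 matched). Limma 3.58.1 in R 4.3.3 (lmFit, eBayes, no block) was fitted on all 18193 genes, with Benjamini-Hochberg adjustment. SEs of single probe sets come from the same fit over all 34945. Lists are described by counts and medians, with no set test. The members and lists were chosen with earlier results of these data known. All members are named, with pool values for those that differed by at least 0.4 without overlap or had the lowest p of their class, and up to 4 genes by lowest p in each companion list. Car1, Mpo, Elane, S100a8, S100a9, Ltf and Camp were named after their values were seen. Alternatives were other probe set rules, centring, a filter on dim genes, a pool number block, other moderation, other classes for Gfi1 and Gfi1b, and leaving out each pool.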

Additional observations from a re-analysis of the deposited data

How the results depend on the processing

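Limma called 0 genes higher and 0 lower under every alternative run. Genes at an unadjusted p under 0.05 were 399 higher and 735 lower as reported. They were 601 and 530 with median centring over genes and 297 and 1015 with centring over all probe sets, a setting added after seeing the data. Among genes above the median level they were 176 and 408, of the fewer genes tested. With the pool number as a replicate block they were 281 and 457. The deviations of same-numbered pools from their group means correlated at -0.19 over genes, and the crossed pairing, also added after seeing the data, gave 518 and 1151. Without a pool they ran from 244 to 689 and from 317 to 1082. With 2 pools per group the numbers were not taken as pairs, and the block leaves every difference as it was.

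The median over all factors (0.03) was 0.083 with centring, -0.012 among brighter genes and -0.038 to 0.091 without a pool. The stem cell median (-0.09) ran from -0.20 to -0.049 without a pool. The myeloid median (0.23) ran from 0.00502 to 0.47, with 3 to 5 of 5 above 0. For the erythroid-megakaryocyte factors (-0.18) the range was -0.27 to 0.13, with 1 to 2 of 3 above 0, and 2 of 4 were above 0 when Gfi1b was counted there. The lymphoid median (0.19) was 0.093 when probe sets of a gene were averaged, 0.25 with specific probe sets first, 0.24 with centring, 0.093 among brighter genes and 0.10 to 0.16 without a pool. Other transcription factors (0.03) had 0.080 with centring. The erythroid programme ran from -0.43 to 0.42 without a pool, the megakaryocyte programme from -0.12 to 0.12 and the lymphoid programme from -0.11 to 0.32. The cause of these shifts was not tested.

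Signs of single factors turned in 6 of 39 when probe sets of a gene were averaged (Meis1 0.098, Fli1 0.073, Cbfa2t3 0.00693, Myb -0.031, Irf8 -0.044, Elf1 0.44), in 2 with specific probe sets first (Meis1 0.49, Nfix -0.052) and in 5 with median centring (Gata2 0.028, Etv6 0.043, Cbfa2t3 0.031, Ikzf1 0.043, Elf1 0.030). Leaving out each pool turned 16 factors, with these ranges of differences: Prdm16 -0.17 to 0.023, Gata2 -0.41 to 0.35, Fli1 -0.30 to 0.075, Etv6 -0.13 to 0.10, Gfi1 -0.93 to 0.16, Gfi1b -0.14 to 0.27, Cbfa2t3 -0.23 to 0.18, Nfix -0.12 to 0.53, Spi1 -0.20 to 0.34, Cebpb -0.12 to 0.99, Irf8 -0.011 to 0.47, Zfpm1 -0.49 to 0.13, Ikzf1 -0.097 to 0.075, Gata3 -0.17 to 0.35, Bcl11a -0.094 to 0.15, Elf1 -0.27 to 0.22. The other 23 factors kept their sign without each pool.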
